A study of Mus musculus with 6 samples.

Results

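The semaphorins, the plexins and the neuropilins form one guidance system, and 31 of the 45038 genes in the deposited table carry their names. They were found by symbol alone, as 20 semaphorins, 9 plexins and 2 neuropilins, and all were kept whatever their level. Semaphorins are signals that are secreted (class 3), span the membrane (classes 4, 5 and 6) or are anchored to it by a lipid (class 7). Plexins are their receptors and carry a domain inside the cell that switches off small Ras-like GTPases, which loosens adhesion and turns the cytoskeleton. Most class 3 semaphorins need a neuropilin beside the plexin, and neuropilins also bind VEGF beside its own receptors, so that in vessels this system meets the control of sprouting.

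RNA was sequenced from sorted heart cells of C57BL/6 mice in 6 libraries. All carried Tie2-Cre, a recombinase driven by the promoter of the endothelial receptor Tie2, which is also active in part of the blood lineage, and Rosa-LSL-tdTomato, a red reporter that Cre switches on. The 3 MI libraries came from infarcted tissue 3 weeks after ligation of the left anterior descending coronary artery at 6 to 8 weeks of age. The 3 Normal libraries came from normal left ventricle and are labelled as without that surgery. Their age is also given as 6 to 8 weeks. The sort kept red cells that lacked F4/80, an antigen of macrophages, in both groups, so neither is a pure endothelial sample. Titles give both groups the numbers Ms1535, Ms1537 and Ms1608, and no label says whether equal numbers mean one mouse, so p-values measure only the spread between these libraries.

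Values are FPKM, that is, fragment numbers divided by the length of the transcript and the mapped total of each library, and low values implied 32.7 M to 45.5 M fragments (M for mega) in each. There, 3 fragments correspond to 0.00353 to 0.0278 FPKM over the members and libraries, for counting error only. Normal Ms1608 stood apart in its marker sums, from lists chosen with earlier results of these data known. Its 12 endothelial markers summed to 40.7 FPKM, where Normal Ms1535 and Ms1537 had 1305 and 929.6 and MI had 283 to 1115. Its 10 leukocyte markers summed to 3880 FPKM, where those had 272 and 404 and MI had 2033 to 2375. Fibroblast markers summed to 970.5 to 5897 FPKM in MI and 191 to 924 FPKM in Normal, and every endothelial and leukocyte marker was above 0.001 FPKM in every library. Results are therefore given with and without Normal Ms1608. In bulk RNA, fewer cells of a type and less RNA per cell cannot be told apart.

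The promoters shown are those of Sema4b and Plxnb2. Only these members had all MI values above all Normal values, as deposited and after each of 3 ways of rescaling the libraries. Quantile normalization, 1 of the 3, covered only 13 members. The share of all genes that did the same was not computed. The letters are the stretch before the most upstream RefSeq start that lies outside the gene as GENCODE draws it, on build GRCm38.p6. The Sema4b stretch is chr7:80186620-80186840 on the plus strand and the Plxnb2 stretch is chr15:89180789-89181038 on the minus strand. Capitals mark GGGCGG, the core of the GC box, read on either strand (CCGCCC on the other), and in Sema4b the 2 copies overlap by a base.
Sema4b: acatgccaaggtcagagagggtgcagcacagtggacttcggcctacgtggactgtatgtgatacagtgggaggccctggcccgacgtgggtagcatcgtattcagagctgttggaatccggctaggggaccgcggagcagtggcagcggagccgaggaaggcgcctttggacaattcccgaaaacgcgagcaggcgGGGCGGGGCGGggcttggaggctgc
Plxnb2: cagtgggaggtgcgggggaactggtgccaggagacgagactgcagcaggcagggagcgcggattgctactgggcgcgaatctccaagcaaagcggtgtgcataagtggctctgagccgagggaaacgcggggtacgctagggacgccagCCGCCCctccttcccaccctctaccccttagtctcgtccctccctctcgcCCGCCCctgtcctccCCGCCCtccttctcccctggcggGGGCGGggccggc
The Plxnb2 stretch held 4 copies, counting both strands. Among the 32851 RefSeq start windows of 250 bases in mouse, 32.7% held at least 1 copy, and 27 of the 37 windows of family members did. The match describes letters and says nothing of which factor binds there.

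Over the whole family, no member passed the threshold with all 6 libraries. Of the 31 members, 13 reached 1 FPKM in at least 3 libraries and entered a limma test over 10168 genes, in which 0 members had an adjusted p under 0.05 (1 gene in all, or 0.00983%). At an unadjusted p under 0.05 there were 3 members, Sema4b, Plxnb2 and Sema3c, all higher in MI, which is 23.1% of those tested against 16.3% of all tested genes. The median difference, MI minus Normal and computed on log2(FPKM + 1), was 0.70 over the 13 members and 0.78 over all tested genes. Median-ratio, upper-quartile and quantile scaling moved the median of all genes to 0.27, 0.20 and -0.046, and that of the 13 members to 0.17, 0.10 and -0.29. The groups did not overlap for 6 of the 31 members, each with MI above, or 19.4% against 12.6% of all genes with a value above 0. The reverse held for 0 members, against 2% of such genes. Without Normal Ms1608, 5 members had an unadjusted p under 0.05 (31.6% of all genes did), 10 had MI above Normal without overlap (24.5% of all genes) and 2 passed after adjustment (4.51% of all genes). Without both Ms1608 libraries, 5 passed, beside 14.4% of all genes, and with library weights 5 passed, beside 32.3%. Fitted with no filter on level, 4 of all 31 members had an unadjusted p under 0.05, beside 7.05% of all genes. With all 6 libraries the shares lay near those of all genes, so what follows concerns single members.

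**Figure D1:**
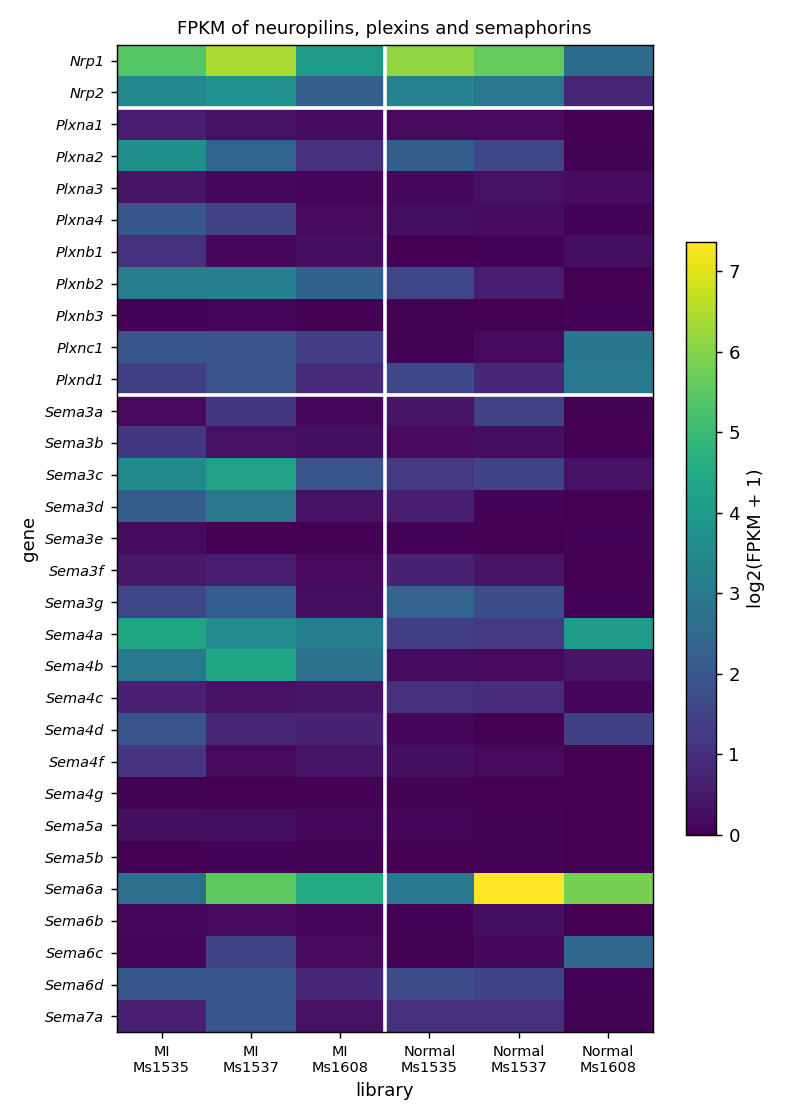
Heat map of log2(FPKM + 1) for the 31 members (rows: neuropilins, plexins, semaphorins, divided by white lines) in the 3 MI and 3 Normal libraries (columns). Nrp1 and Sema6a are the brightest rows, Sema4b is bright in MI only, and Normal Ms1608 has the lowest value of the 6 libraries in 18 rows.

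Among the ligands, class 4, whose members span the membrane, held the widest separation. Sema4b (chr7:80186841-80226527), which spans the membrane once, was measured at 6.91, 19.6 and 5.81 FPKM in infarct and at 0.193, 0.149 and 0.314 in normal ventricle, here and below in the order Ms1535, Ms1537, Ms1608. All 3 MI libraries were high and all 3 Normal libraries low, and the lowest MI value was 18.5 times the highest Normal value. Group means were 10.8 ± 7.66 for MI and 0.219 ± 0.0850 for Normal (FPKM, SD, n = 3 each). The log2 difference was 3.09 (SE 0.62, limma adjusted p = 0.245), which missed the threshold. Without Normal Ms1608 it was 3.14 (SE 0.59) and passed (limma adjusted p = 0.0304). Leukocyte markers summed to 2033 to 2375 FPKM in MI and to 3880 FPKM in Normal Ms1608, where Sema4b was at 0.314 FPKM. Fibroblast marker sums were higher in every MI library than in every Normal library, at 970.5 FPKM or more against 924 FPKM or less. The part of either cell type in the result was not tested.

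Sema4a and Sema4d, both known as semaphorins of immune cells, had another pattern. Sema4a, which costimulates T cells, was at 19.2, 10.7 and 7.87 FPKM in infarct and 1.56, 1.38 and 15.7 in normal ventricle. The groups overlapped through Normal Ms1608 alone, whose value lay above 2 of the MI libraries. The log2 difference was 1.45 (SE 0.88, limma adjusted p = 0.406). Without Normal Ms1608 it was 2.38 (SE 0.53, limma adjusted p = 0.0445), so Sema4a and Sema4b were the 2 members called there, or 15.4% of those tested. Sema4d, the surface protein CD100 of T cells, did not enter the test and had 2.72, 0.716 and 0.631 FPKM in MI. In Normal it had 0.0671 and 0.00675 FPKM in Ms1535 and Ms1537 and 1.63 FPKM in Ms1608. Both genes were thus low in the 2 Normal libraries with leukocyte sums of 272 and 404 FPKM and higher in the 4 libraries with 2033 FPKM or more. The part of leukocytes in these values was not tested.

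The other class 4 members were low. Sema4c, a ligand of plexin B2, had 0.600, 0.280 and 0.324 FPKM across the MI libraries and 0.977, 0.917 and 0.0929 across the Normal ones. It was the 1 member whose MI values all lay below Normal once Normal Ms1608 was left out, against 5.78% of all genes above 0. A gene on the opposite strand overlaps Sema4c, and the strand setting of the counting was not given in the sources used here. Such an overlap was also found for Nrp2, Plxna1, Plxna4, Plxnb1, Sema3a, Sema3d, Sema3e, Sema4d, Sema5a, Sema5b and Sema6d. Genes on the same strand overlap Nrp1, Nrp2, Plxna2, Plxnb2, Plxnc1, Sema3a, Sema3d, Sema3e, Sema4a and Sema4b. Sema4f reached 1.17 FPKM in MI Ms1535 and stayed at 0.324 FPKM or less elsewhere, and Sema4g did not pass 0.0250 FPKM in any library.

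**Figure D2:**
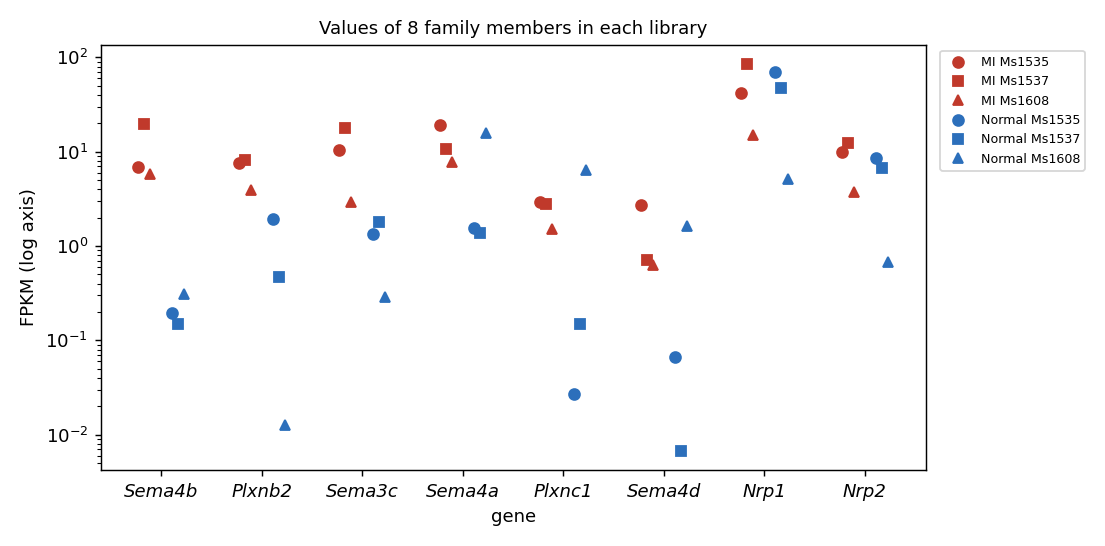
FPKM on a log axis for 8 members in each library, with MI in red, Normal in blue and the 3 title numbers as circle, square and triangle. For Sema4b, Plxnb2 and Sema3c every red point lies above every blue one, whereas for Sema4a, Plxnc1 and Sema4d the blue triangle, Normal Ms1608, lies among or above the red points.

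Class 3, the secreted semaphorins, was led by Sema3c (chr5:17574281-17730268), which in mouse is needed to divide the outflow tract of the embryonic heart. It was at 10.4, 17.9 and 2.92 FPKM in infarct and 1.35, 1.79 and 0.290 in normal ventricle. The groups did not overlap, although MI Ms1608 lay close to the Normal libraries. The means were 10.4 ± 7.48 and 1.14 ± 0.769 FPKM (SD, n = 3 each), 2.21 apart on the log2 scale (SE 0.75, limma adjusted p = 0.252). Without Normal Ms1608 the difference was 1.88 (SE 0.69, limma adjusted p = 0.115). After median-ratio, upper-quartile or quantile rescaling the groups no longer stood apart for this gene.

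Sema3d, a ligand that in mouse acts on endothelial cells of the pulmonary veins, showed a similar order. It had 3.51, 6.66 and 0.293 FPKM across the MI libraries and 0.538, 0.0420 and 0.0173 across the Normal ones. MI Ms1535 and Ms1537 were high, and MI Ms1608 lay below Normal Ms1535, so the groups overlapped. Fibroblast markers summed to 5897 and 5423 FPKM in MI Ms1535 and Ms1537 and to 970.5 FPKM in MI Ms1608, the library lowest of the MI group for both genes as well. Their part in the Sema3c and Sema3d values was not tested.

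Sema3g, a class 3 member made by endothelium itself, did not separate the groups. It was at 1.93, 3.61 and 0.198 FPKM in infarct and 4.08, 2.43 and 0.0427 in normal ventricle, with a fitted difference of -0.055 on the log2 scale (SE 0.71, limma adjusted p = 0.978). Its lowest values fell in the libraries numbered Ms1608, which also had the lowest endothelial marker sums of their groups, 283 and 40.7 FPKM. Sema3a, the founding repulsive signal of the class, ranged from 0.0217 to 1.73 FPKM, with the highest value in Normal Ms1537. Sema3b stood apart by a small margin, at 0.239 FPKM or more in MI and 0.212 FPKM or less in Normal. Sema3f, which acts through neuropilin 2, did not pass 0.647 FPKM, and Sema3e, the direct ligand of plexin D1, did not pass 0.164 FPKM and was listed at 0 in 2 MI libraries.

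Sema6a, a membrane semaphorin that binds class A plexins, had the highest value of any member. It was at 5.54, 45.0 and 21.6 FPKM across the MI libraries and 6.92, 163 and 56.8 across the Normal ones. The groups overlapped, with means of 24.1 ± 19.8 and 75.6 ± 79.8 FPKM (SD, n = 3 each). The log2 difference was -1.15 (SE 1.14, limma adjusted p = 0.612), and its sign stayed negative under all 16 other settings. In both groups Ms1535 had the lowest Sema6a value and Ms1537 the highest. With a replicate block the same difference had an SE of 0.82 (limma adjusted p = 0.466). Normal Ms1535 and Ms1537 had endothelial sums of 1305 and 929.6 FPKM.

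The remaining ligands of classes 5, 6 and 7 were lower. Sema6d, which in chick guides heart morphogenesis, was at 3.08, 2.88 and 0.776 FPKM in infarct and 2.26, 1.77 and 0.0560 in normal ventricle (log2 difference 0.52, SE 0.59, limma adjusted p = 0.662, and negative under each of the 3 scalings). Sema6c had 4.49 FPKM in Normal Ms1608 and 1.86 FPKM in MI Ms1537, and did not pass 0.143 FPKM in the other 4 libraries. Sema7a, the lipid-anchored ligand of plexin C1 and of beta 1 integrins, was at 0.601, 2.96 and 0.259 FPKM across the MI libraries and 1.08, 1.00 and 0.0256 across the Normal ones. The fitted log2 difference was 0.30 (SE 0.50, limma adjusted p = 0.780) and turned negative under 6 of 15 other settings. Sema5a did not overlap between groups but at low levels, at 0.108 FPKM or more in MI and 0.0802 FPKM or less in Normal. Sema5b and Sema6b did not pass 0.0530 and 0.211 FPKM.

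Among the receptors, Plxnb2 (chr15:89155549-89180788) had the largest log2 difference of the 4 tested plexins. Plexin B2 binds class 4 semaphorins and angiogenin. It was at 7.62, 8.25 and 3.89 FPKM in infarct and 1.93, 0.473 and 0.0128 in normal ventricle. The value in Normal Ms1608 is near the floor, since 3 fragments of Plxnb2 correspond to 0.0110 FPKM there. Every MI library lay above every Normal one, by 2.01 times at the closest pair. The means were 6.59 ± 2.36 and 0.807 ± 1.003 FPKM (SD, n = 3 each), 2.16 apart on the log2 scale (SE 0.62, limma adjusted p = 0.245). Fibroblast and lymphatic marker sums and Adgre1 did not overlap between the groups either, and the part of those cells was not tested. Without Normal Ms1608 the Plxnb2 difference was 1.81 (SE 0.55, limma adjusted p = 0.0810). Plxnb1, the receptor of Sema4d, was at 1.11, 0.111 and 0.237 FPKM in MI and did not pass 0.208 FPKM in Normal, and Plxnb3 did not pass 0.0669 FPKM.

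Plexins C1 and D1 were highest in Normal Ms1608. Plxnc1, a receptor of Sema7a found on myeloid cells, was at 2.90, 2.82 and 1.52 FPKM across the MI libraries and 0.0268, 0.150 and 6.48 across the Normal ones. It followed the pattern of Sema4a, low in the 2 Normal libraries with few leukocyte transcripts and high in the other 4 libraries. The fitted log2 difference was 0.70 (SE 0.74, limma adjusted p = 0.641), and 1.62 (SE 0.39, limma adjusted p = 0.0534) without Normal Ms1608. Plxnd1, the endothelial receptor of Sema3e, was at 1.65, 2.78 and 0.882 FPKM in infarct and 2.09, 0.783 and 6.91 in normal ventricle. Its highest value fell in the library with the lowest endothelial marker sum, 40.7 FPKM. The log2 difference was -0.40 (SE 0.65, limma adjusted p = 0.777) and became 0.18 (SE 0.48, limma adjusted p = 0.784) without that library.

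Of the class A plexins, Plxna2, a receptor of Sema6a and of class 3 ligands, was the most abundant. It was at 11.9, 4.14 and 1.07 FPKM across the MI libraries and 3.53, 1.97 and 0.0377 across the Normal ones. MI Ms1535 held the highest value, but MI Ms1608 lay below 2 Normal libraries (log2 difference 1.10, SE 0.82, limma adjusted p = 0.492). Plxna4, which pairs with neuropilin 1 for Sema3a, had 2.97, 1.72 and 0.143 FPKM in infarct and 0.216, 0.180 and 0.0565 in normal ventricle, and antisense genes overlap it. Plxna1 stood just apart, at 0.179 FPKM or more in MI and 0.148 FPKM or less in Normal, and Plxna3 did not pass 0.302 FPKM.

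**Figure D3:**
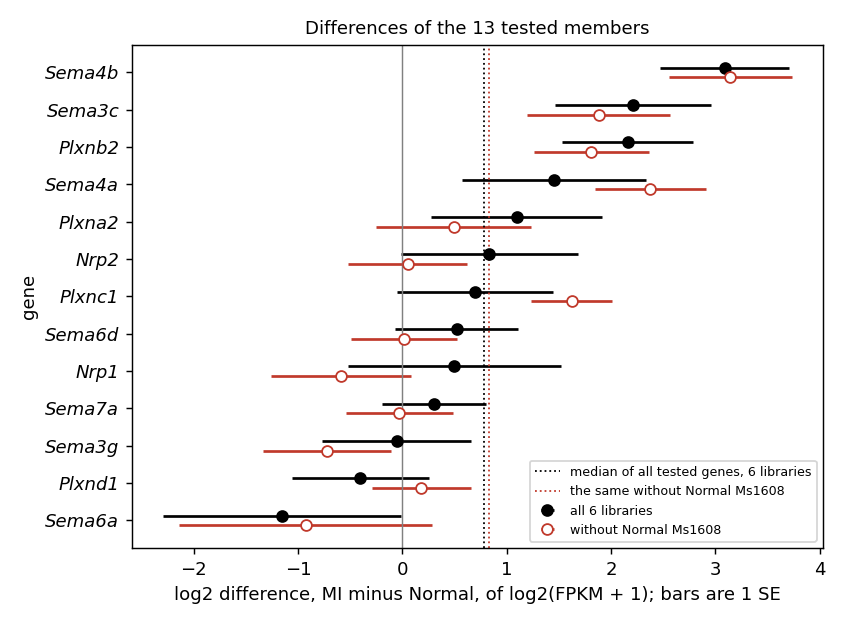
Difference in log2(FPKM + 1), MI minus Normal, with bars of 1 SE for the 13 tested members, with all 6 libraries (filled) and without Normal Ms1608 (open). Sema4b stays near 3.1 either way, Sema4a and Plxnc1 move up to 2.38 and 1.62, and Nrp1 moves from 0.50 to -0.59, while the dotted medians of all genes lie at 0.78 and 0.83.

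Of the neuropilins, Nrp1, the co-receptor of VEGF-A and Sema3a, was at 41.5, 85.1 and 15.2 FPKM across the MI libraries and 69.4, 47.7 and 5.13 across the Normal ones. The groups overlapped, and the lowest value of each group fell in its Ms1608 library (log2 difference 0.50, SE 1.02, limma adjusted p = 0.827, and negative under each of the 3 scalings). Without Normal Ms1608 the difference was -0.59 (SE 0.67, limma adjusted p = 0.530). Kdr, the main VEGF receptor of endothelium, was at 0.486 FPKM in Normal Ms1608, where Nrp1 was still at 5.13 FPKM. Nrp2, the co-receptor of VEGF-C and Sema3f in veins and lymphatics, was at 10.0, 12.3 and 3.77 FPKM in infarct and 8.54, 6.69 and 0.686 in normal ventricle. The fitted log2 difference was 0.83 (SE 0.85, limma adjusted p = 0.625), and 0.049 (SE 0.57, limma adjusted p = 0.954) without Normal Ms1608, and it was negative after quantile normalization.

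Ratios inside a library do not change when each library is multiplied by a single factor, as in median-ratio or upper-quartile scaling, although quantile normalization can change them. The ratio of Nrp1 to Nrp2 in FPKM was 4.14, 6.94 and 4.03 in infarct and 8.12, 7.14 and 7.48 in normal ventricle. The MI ratios all lay below the Normal ones, by a small margin for MI Ms1537. After quantile normalization the log2 differences of Nrp1 and Nrp2 were -0.29 and -0.44, an order opposite to that of 0.50 and 0.83 as deposited. Lymphatic endothelial markers also summed higher in MI, at 28.2 to 115 FPKM against 1.08 to 21.3 FPKM, and their part was not tested. With 3 libraries a group an exact two-sided permutation test cannot give a p under 0.1, and none is given for ratios or shares.

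The plexins summed to 4.04 to 29.0 FPKM, and their make-up varied. Plxnb2 made 26.3%, 40.7% and 48.6% of plexin FPKM in MI and 23.9%, 11.7% and 0.0922% in Normal, so the groups stood apart, with MI Ms1535 close to Normal Ms1535. Plxna2 made 43.6% and 48.8% in Normal Ms1535 and Ms1537, against 13.3% to 41.0% in MI and 0.270% in Normal Ms1608. Plxnc1 and Plxnd1 together made most of the plexin FPKM in Normal Ms1608, at 46.5% and 49.6%. In MI, Plxnd1 made 5.70% to 13.7%, below each of the Normal libraries, whose lowest share was 19.4%. Plxnd1 values in FPKM overlapped between the groups, so this share also depends on the other plexins.

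Sema6a alone made 9.53% to 93.0% of semaphorin FPKM, so shares of the other semaphorins are given without it, a choice made after its values were seen. Sema4b made 13.1%, 28.1% and 28.7% of that rest in MI and 1.41%, 1.22% and 1.38% in Normal. The groups stood apart in this share, and Normal Ms1608 lay between the other Normal libraries. Sema3g made 29.8% and 19.8% in Normal Ms1535 and Ms1537, 0.979% to 5.18% in MI and 0.187% in Normal Ms1608. Sema4a made 69.0% in Normal Ms1608, 15.3% to 38.8% in MI and 11.4% and 11.2% in the other Normal libraries. Class 4 as a whole made 45.1% to 73.9% in MI, 22.2% and 21.2% in Normal Ms1535 and Ms1537 and 78.0% in Normal Ms1608.

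**Figure D4:**
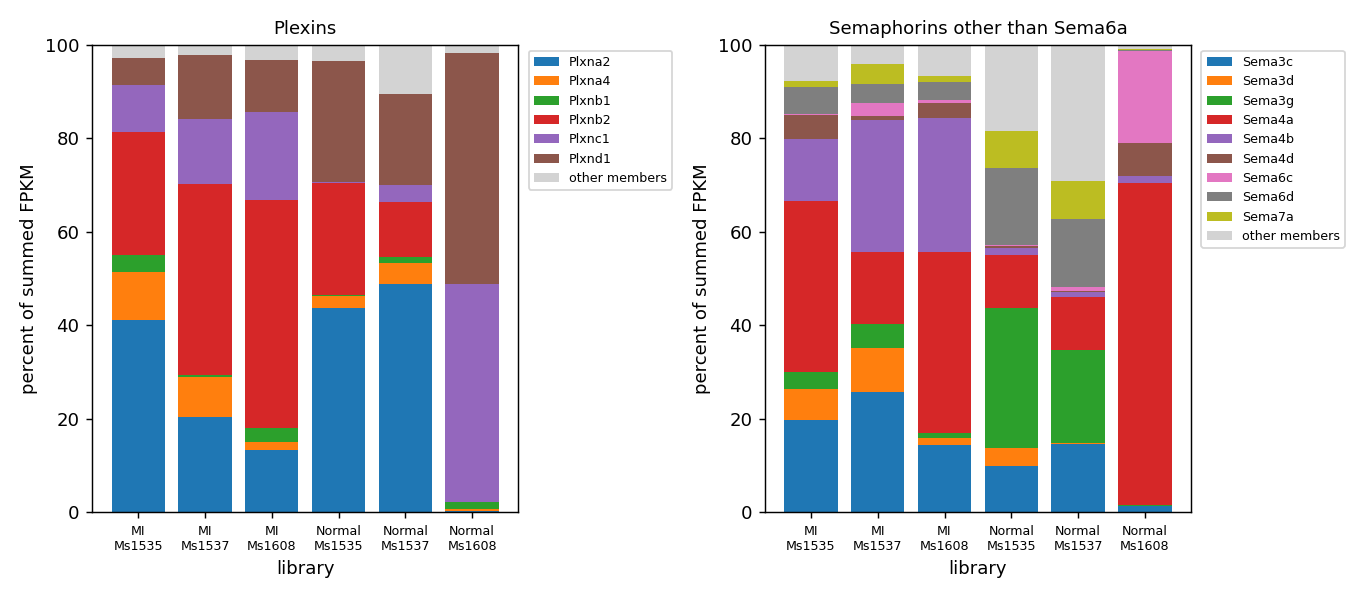
Stacked shares, in percent of summed FPKM, of the plexins (left) and of the semaphorins other than Sema6a (right) in each library, with grey for the remaining members. Normal Ms1608 is filled by Plxnc1 and Plxnd1 on the left and by Sema4a on the right, and the Sema4b band is at 13.1% to 28.7% in MI and at 1.22% to 1.41% in Normal.

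Partners of the family were taken from 5 lists with 70 genes; the table held 69, and 46 entered the test. By limma 0 of the 46 passed the adjusted threshold, and at an unadjusted p under 0.05 there were 10, all higher in MI (21.7%, against 16.1% of all genes in that direction). Their median log2 difference was 0.79, beside 0.78 for all genes. Without Normal Ms1608, 3 partners were called higher, Mical1, Tyrobp and Cd72, and 0 lower, where 4.45% and 0.0688% of all genes were called. Cd72, a receptor of class 4 semaphorins on B cells, was at 7.37, 5.77 and 10.6 FPKM across the MI libraries and 0.966, 0.325 and 64.4 across the Normal ones. The left-out library thus held its highest value, and with all 6 libraries the Normal mean of 21.9 FPKM lay above the MI mean of 7.90 FPKM. The fitted log2 difference was 0.65 with all 6 (limma adjusted p = 0.824) and 2.43 without Normal Ms1608 (limma adjusted p = 0.0389).

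Inside the cell, Mical1, an enzyme that oxidizes actin downstream of plexin A, had 149, 259 and 134 FPKM across the MI libraries and 29.8, 27.5 and 72.6 across the Normal ones. All 3 MI libraries lay above Normal (log2 difference 2.12, SE 0.66, limma adjusted p = 0.247), and without Normal Ms1608 the difference was 2.55 (limma adjusted p = 0.0259). Pak1, a kinase downstream of Rac, was at 9.41, 5.05 and 4.83 FPKM against 2.01, 0.260 and 0.126 FPKM (log2 difference 2.14, SE 0.62, limma adjusted p = 0.245). It too had no overlap between groups. Tiam1, an exchange factor for Rac, was at 5.26, 6.62 and 4.94 FPKM in infarct and 0.468, 1.05 and 3.44 in normal ventricle, a log2 difference of 1.47 (limma adjusted p = 0.299). Sh3bp1, a GTPase-activating protein that binds plexin D1, was at 1.42, 1.17 and 1.504 FPKM across the MI libraries and 0.903, 0.172 and 0.119 across the Normal ones, a log2 difference of 0.80 (limma adjusted p = 0.304). For both genes every MI value lay above every Normal value. Partners described here and in the next paragraph were the 2 with the lowest unadjusted p of each list. That choice favors separated groups, so their separation adds no support. Of all genes with a value above 0, 12.6% had MI above Normal without overlap.

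Outside the cell, Vegfa, which competes for neuropilin 1, was at 7.02, 3.12 and 2.03 FPKM in infarct and 0.281, 0.664 and 0.984 in normal ventricle. Every MI library lay above Normal, while the difference missed the threshold (1.52, SE 0.54, limma adjusted p = 0.252). Vegfb, a ligand of VEGF receptor 1 and neuropilin 1, was at 15.4, 15.5 and 9.05 FPKM across the MI libraries and 12.7, 5.42 and 0.329 across the Normal ones, with overlap, and differed by 1.51 on the log2 scale (SE 0.90, limma adjusted p = 0.399). Mmp14, a membrane protease that can release Sema4d from the cell surface, was at 101, 19.3 and 7.19 FPKM against 4.76, 7.77 and 0.254 FPKM, with MI Ms1608 inside the Normal range (log2 difference 2.69, SE 1.07, limma adjusted p = 0.276). Pcsk5, a protease of the furin family, was at 3.26, 11.4 and 1.51 FPKM in infarct and 1.58, 1.34 and 0.173 in normal ventricle, where the groups overlapped, a log2 difference of 1.41 (limma adjusted p = 0.325). Among receptors that work beside plexins or neuropilins, L1cam, an adhesion molecule that binds neuropilin 1, was at 1.91, 1.75 and 1.34 FPKM across the MI libraries and 0.255, 0.396 and 0.803 across the Normal ones, without overlap, a log2 difference of 0.86 (limma adjusted p = 0.294). Tyrobp, a myeloid adaptor linked to plexin A1 in dendritic cells and osteoclasts of mouse, was at 150, 199 and 287 FPKM across the MI libraries and 24.3, 53.8 and 328 across the Normal ones, high where leukocyte sums were high. The fitted log2 difference was 1.42 (SE 0.91, limma adjusted p = 0.425), and 2.46 (limma adjusted p = 0.0369) without Normal Ms1608.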

How the data were processed

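Per the submitters' processing notes, reads were aligned with STAR 2.4.2a and abundances estimated with Cufflinks 2.2.1 on mouse GRCm38 (mm10). Which annotation and strand setting were used, and how multi-mapping reads were counted, is not given in the sources used here. RNA was amplified by T7 transcription before library preparation, per the labels' protocols, which can widen the spread between libraries. The authors deposited FPKM values, 1 column per library, and they were not rescaled for the main result. Genes that reached 1 FPKM in 3 or more of the 6 libraries were tested on log2(FPKM + 1) with limma 3.58.1 (R 4.3.3), with a mean-variance trend, group as the only term and Benjamini-Hochberg adjustment at 0.05. The script was tested on simulated data. A log2 difference on this scale understates changes of low genes. Depth was read from the low values of single-transcript genes of at least 2000 bases. They lay within 0.1 of a whole number of fragments for 85.5% to 90.2%, against 20% if evenly spread, a step fitted to these same values. The protocol's stated read number is lower and was not reconciled. Positions came from GENCODE M21 and promoters from RefSeq, which had 26 of the 31 members. Full values were given for neuropilins, for members with at least 5 FPKM in a library and for those with the 8 lowest p, for the first 2 genes by p of each partner list, and others were named after their values were seen. The members and all lists were chosen with earlier results of these data known. Alternatives were 3 scalings, 2 pseudocounts, 2 filters, library weights, a replicate block and left-out libraries.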

Additional observations from a re-analysis of the deposited data

How the results depend on the processing

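With all 6 libraries 1 gene, 0 members and 0 partners passed limma's adjusted threshold. With limma's library weights, which gave Normal Ms1608 0.117 and MI Ms1535 2.66, these became 3288 genes, 5 members and 17 partners. Without both libraries numbered Ms1608 they were 1469 genes, 5 members and 12 partners. Leaving out each library in turn gave 1 to 459 genes, 0 to 2 members and 0 to 3 partners, with the upper end of each range without Normal Ms1608. The weights were estimated from the same data. The 5 members in both settings were Sema4b, Sema4a, Plxnb2, Plxnc1 and Sema3c. Members with MI above Normal without overlap numbered 6 as deposited and 2 after median-ratio scaling, 2 after upper-quartile scaling and 2 after quantile normalization (of the 13 tested). They were 16 without both Ms1608 libraries and 7 to 12 with 1 library left out, and those with MI below were 1 and 0 to 1. The share of all genes with MI above was 12.6% as deposited and 24.5% without Normal Ms1608. It was not computed for the other settings. Groups with fewer libraries separate more easily, so the rise in these counts is not a result about the family. The median of all genes moved from 0.78 to 0.27, 0.20 and -0.046 under the 3 scalings, and that of the members from 0.70 to 0.17, 0.10 and -0.29.

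Differences of Sema4b, Sema4a, Plxnb2, Plxnc1, Sema3c, Plxna2 and Sema6a kept their sign under every setting that could test them. Sema4b ran from 1.49 to 4.91 (limma adjusted p from 0.00378 to 0.891). After quantile normalization Plxnc1 was at 0.0043 (SE 0.73) and Plxna2 at 0.072 (SE 0.75), far smaller than their SE. Signs turned, each without a call, for Sema6d (-0.037, -0.083 and -0.51), Sema7a (-0.14, -0.18 and -0.46) and Nrp1 (-0.15, -0.25 and -0.29) under median-ratio, upper-quartile and quantile scaling, and for Nrp2 (-0.44) under the last. With library weights Sema7a was at -0.12, Nrp1 at -0.39 and Plxnd1 at 0.21, and Plxnd1 was at 0.43 without both Ms1608 libraries. Sema3g was at 0.19 with a pseudocount of 0.1. With 1 library left out the ranges were -0.89 to 0.18 for Plxnd1, -0.19 to 0.64 for Sema7a, -0.59 to 1.17 for Nrp1 and -0.72 to 0.48 for Sema3g. The cause of these turns was not tested. Whether equal title numbers mean one mouse is not stated. The libraries were therefore not treated as paired, which does not show that they are unpaired. Deviations from group means correlated at -0.052, 0.098 and 0.087 between libraries of equal number, none above 0.1. Between libraries of unequal number the correlations ran from -0.115 to 0.104. With 3 libraries a group, these values cannot decide the pairing. With the replicate block 1 gene and 0 members were called. Depth limits the 10 members that had at least 1 library under the FPKM of 3 fragments.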
